A study of Bos grunniens and Bos grunniens x Bos taurus with 2 samples.

Results

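A total of 60 chaperone and cochaperone genes were followed among the 26961 genes counted in testis cells of yak and cattle-yak. They were chosen by gene symbol alone, as all genes named as HSPA, HSPB, HSPD or HSPH members, HSP90, DNAJA, DNAJB or DNAJC members, BAG members, and *CRYAB*. The set held 12 genes of the HSP70 and HSP110 families, 3 of HSP90, 6 of small heat shock proteins, 1 mitochondrial chaperonin (*HSPD1*), 3 DNAJA, 9 DNAJB, 20 DNAJC and 6 BAG genes. In the yak library all 60 had at least 1 UMI (a molecule counted once by its barcode), as did 59 in the cattle-yak library. Several well-known members, among them *HSPA1A*, *HSPA1B*, *HSPB1*, *HSPE1*, *DNAJA1* and *DNAJB1*, were not analysed here because no gene name in the table matched.

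The samples were testis tissue of 1 yak (*Bos grunniens*) and 1 cattle-yak (*Bos grunniens* x *Bos taurus*), both past sexual maturity, each sequenced as 1 droplet library after the frozen tissue had been thawed in a warm bath and digested with collagenase IV, hyaluronidase and trypsin. The labels give the cells of both libraries as germ cells, yet 8080 of 10324 yak and 5007 of 7092 cattle-yak cells within the limits fell in classes named by somatic markers. Depth was 60816600 UMIs over 11991 yak cells (median 2533 per cell) and 43774841 UMIs over 8930 cattle-yak cells (median 3155). Since each group came from 1 animal and 1 library, no test between animals was possible, no p-value is given, and all intervals are exact 95% intervals of counting error only.

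Heat shock proteins bind unfolded or partly folded proteins and keep them from clumping. HSP70 proteins work in a cycle that J-domain proteins (DNAJ) start by driving ATP hydrolysis and that HSP110 and BAG proteins close by exchanging the nucleotide, while HSP90 takes over clients near their folded state. Male germ cells are known for their own chaperone forms, and the testis is kept below body temperature, which makes heat and folding a long-standing question in spermatogenesis.

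Yak germ cells were read in 2 ways. The first used the 1127 cells that the study's supplementary table assigns to 5 types, namely 84 spermatogonial stem cells (SSC), 486 spermatogonia (SPG), 72 early spermatocytes (early-SPC), 261 late spermatocytes (late-SPC) and 224 spermatids (SPT), with median depths from 906 to 1799.5 UMIs. The second used 406 deep germ cells that lay above the upper limits of 21212 UMIs or 3637 genes, and which clustering without the chaperone genes split into 147 SPG-like, 188 SPC-like and 71 SPT-like cells. After the data had been seen, the deep SPC-like clusters were ordered by the highest of *SYCP3*, *PIWIL1* and *SPATA16* into 56 SYCP3-stage, 33 PIWIL1-stage and 99 SPATA16-stage cells. *UCHL1* stood at 1688 CPM (its counts scaled to the same total of UMIs in each group) in deep SPG-like cells, *SYCP3* at 319 in SYCP3-stage, *PIWIL1* at 1151 in PIWIL1-stage, *SPATA16* at 1077 in SPATA16-stage and *HMGB4* at 3488 in deep SPT-like cells. SYCP3-stage cells also had the SPG markers *UCHL1* at 1236 and *DMRT1* at 414 CPM, the latter against 420 in deep SPG-like cells. The table's early-SPC had *SYCP3* at 1787, *UCHL1* at 133 and *DMRT1* at 3.51 CPM. The SYCP3-stage name therefore does not place these cells with the study's early-SPC. Median depths of these 5 stages ran from 17406.5 to 36413 UMIs per cell, so their levels rest on far more counts than those of the 5 types in the table. The median mitochondrial share per cell declined along the same order, from 14.0% in deep SPG-like cells to 0.268% in deep SPT-like cells. Each of the 5 stages pooled 2 clusters, whose levels could differ, and the counting intervals do not hold that spread.

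A level is the summed count of a gene in a group of cells over all UMIs of that group. Levels are compared between cells for the same gene, and between genes only to say which ones made up a summed list. A log2 ratio is of CPM plus 1, and a bracket after it is the interval of the plain ratio on the log2 scale. A member counted as higher or lower at a 2-fold difference, among genes with at least 10 counts expected in each group. In deep yak germ cells 52 members reached 30 counts in all, while *DNAJC6*, *DNAJC12*, *DNAJC22*, *HSPA6*, *HSPA12A*, *HSPB3*, *HSPB7* and *HSPB8* did not.

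Chaperones did not share a course through yak spermatogenesis. Of the 52 members, 15 stood highest in deep SPG-like cells, 4 in SYCP3-stage, 11 in PIWIL1-stage, 10 in SPATA16-stage and 12 in deep SPT-like cells. In the same order these were 28.8%, 7.69%, 21.2%, 19.2% and 23.1% of them, where 26.1%, 19.4%, 14.1%, 18.0% and 22.5% of all 11786 genes with as many counts stood highest. For 29 of them (55.8%) the highest stage was at least 10-fold above the lowest, with stages under 3 counts set to 3 counts, as it was for 49.2% of all these genes. Only *DNAJB6*, which keeps aggregation-prone proteins soluble, and *DNAJA3*, a mitochondrial J protein, stayed within 2-fold over the 5 stages (3.85%, against 3.34% of all these genes). Their sum over all 60 members was 14360, 16291, 20239, 14167 and 8605 CPM from deep SPG-like to deep SPT-like cells.

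**Figure D1:**
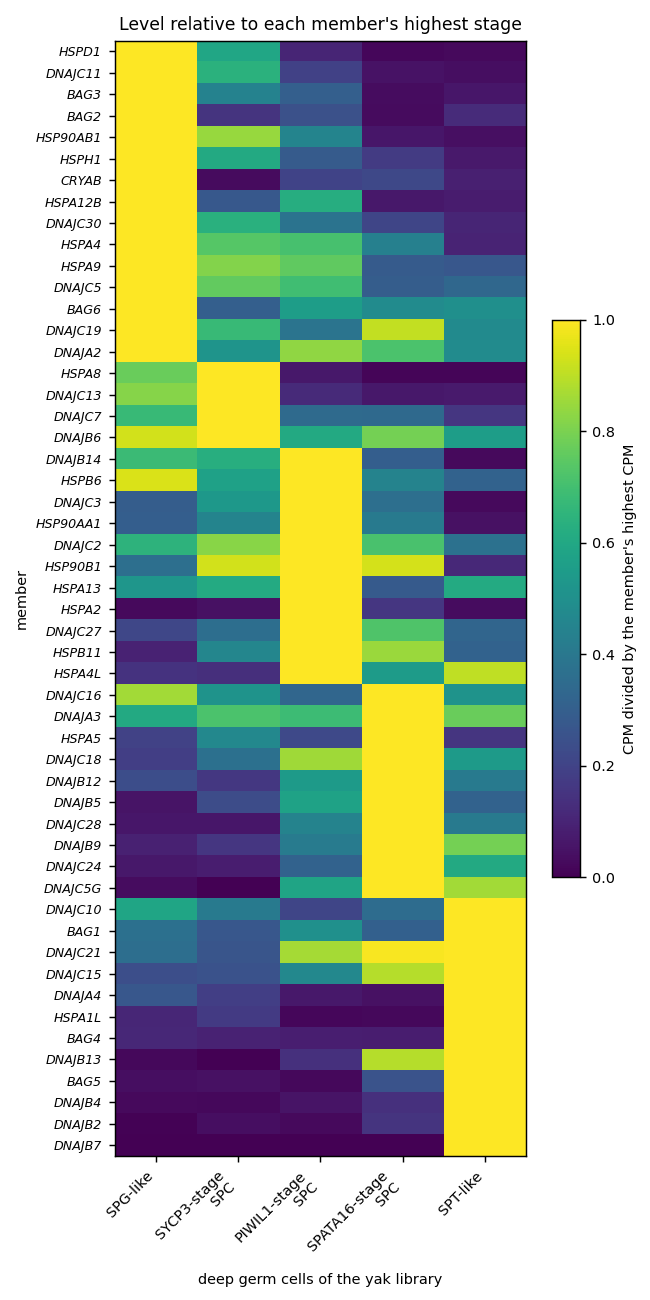
Level of 52 members (rows) in 5 stages of deep yak germ cells (columns), as CPM divided by the highest CPM of that member (colour, 0 to 1). Rows are ordered by the stage of the highest level, and 15 members are brightest in SPG-like cells, 4, 11 and 10 in the SPC stages and 12 in SPT-like cells.

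Among HSP70 genes, the housekeeping form and the testis form went opposite ways between SYCP3-stage and PIWIL1-stage cells. *HSPA8*, the constitutive cytosolic HSP70, stood at 1045 CPM (1012 to 1080) in deep SPG-like, 1354 in SYCP3-stage, 86.4 in PIWIL1-stage, 18.6 in SPATA16-stage and 17.6 (12.9 to 23.4) in deep SPT-like cells. *HSPA2*, the HSP70 known to be needed to complete meiosis in mice, stood at 14.6, 27.9, 616 (576 to 658), 96.5 and 20.6 CPM in the same order. The counting intervals of the PIWIL1-stage and the SYCP3-stage did not overlap for either gene. The 2 PIWIL1-stage clusters had *HSPA8* at 229 and 20.4 CPM and *HSPA2* at 690 and 582 CPM. Between these stages *HSPA8* was lower by a log2 ratio of -3.95 (-4.25 to -3.70) and *HSPA2* higher by 4.42 (3.94 to 5.04). In deep SPT-like cells, 73.9% of the 46 *HSPA8* UMIs came from the 5 cells with most.

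*HSPA1L*, an HSP70 form known from spermatids, stood at 8.04, 13.0, 1.39, 1.53 and 76.0 CPM from deep SPG-like to deep SPT-like cells. The 2 deep SPT-like clusters had it at 112 and 17.0 CPM. *HSPA4L*, a testis-rich HSP110 relative, stood at 103, 93.8, 700, 385 and 634 CPM. *HSPH1* and *HSPA4*, the other HSP110 proteins, were highest in deep SPG-like cells, at 460 and 437 CPM, and lowest in deep SPT-like cells, at 30.9 and 43.6 CPM. Split by cluster, deep SPT-like cells had *HSPA4L* at 861 and 267 CPM, *HSPH1* at 12.4 and 61.0 and *HSPA4* at 32.8 and 61.0. In the second cluster *HSPA4L* was thus below its PIWIL1-stage and SPATA16-stage levels. *HSPH1* and *HSPA4* were lower in both than in any other deep cluster. *HSPA9*, the mitochondrial HSP70, declined from 194 to 52.7 CPM.

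The HSP70 of the endoplasmic reticulum (ER) had an up and down course of its own over the pooled stages. *HSPA5* (BiP) stood at 513, 1209, 573, 2585 and 400 CPM, highest in SPATA16-stage cells. Split by cluster, it stood at 571 and 441 CPM in deep SPG-like, 440 and 1583 in SYCP3-stage and 2521 and 2628 in SPATA16-stage cells. The first rise was thus in the second SYCP3-stage cluster only. Deep SPT-like clusters had *HSPA5* at 134 and 831 CPM, the second of them above both deep SPG-like clusters. *HSPA13*, a small ER-linked HSP70 relative, ranged from 11.6 to 41.1 CPM. *HSPA12B*, a distant HSP70 relative of endothelium, was at 10.0 CPM in deep SPG-like cells and at 0.764 in deep SPT-like cells.

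The 3 HSP90 genes differed in their courses. *HSP90AA1*, the cytosolic form that heat induces, stood at 2998, 4553, 10079 (9915 to 10244), 4099 and 466 CPM. *HSP90AB1*, the constitutive cytosolic form, stood at 3291, 2787, 1491, 201 and 130 CPM. Its PIWIL1-stage level pooled 2 clusters at 3114 (2954 to 3280) and 738 (685 to 794) CPM. *HSP90B1*, the ER form, stood at 582, 1481, 1590, 1490 and 183 CPM. All 3 were lowest in deep SPT-like cells, while the highest stage was the PIWIL1-stage for *HSP90AA1* and *HSP90B1* and the SPG-like class for *HSP90AB1*. Split by cluster, *HSP90AB1* stood at 84.1 and 204 CPM in deep SPT-like and at 188 and 209 in SPATA16-stage cells. Its lowest level thus rests on the first SPT-like cluster.

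Small heat shock proteins, which hold unfolded proteins without ATP, had no common course in deep germ cells. *CRYAB* (alpha B-crystallin) stood at 31.0 CPM in deep SPG-like cells and between 0.929 and 6.77 CPM in the 4 later stages. The 2 deep SPG-like clusters had it at 51.3 and 5.79 CPM. *HSPB11*, also named IFT25 for its place in intraflagellar transport, stood at 6.32, 30.7, 66.9, 56.7 and 21.0 CPM. *HSPB6* did not exceed 4.88 CPM in any stage. *HSPD1*, the chaperonin that folds proteins in the mitochondrial matrix, stood at 705 (677 to 733), 417, 73.2, 13.8 and 18.0 CPM, a 51.3-fold span, and this decline ran alongside that of the mitochondrial share given above. Their relation was not tested. The 2 PIWIL1-stage clusters had *HSPD1* at 191 and 18.4 CPM.

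J proteins were 8 of the 12 members highest in deep SPT-like cells, and 29 of the 52 members counted. *DNAJB7* had 2, 1, 1 and 3 UMIs in the first 4 stages and 1199 in deep SPT-like cells, where it stood at 458 CPM (433 to 485). The 5 cells with most held 19.8% of these UMIs, so its level did not rest on a few cells. *DNAJB13*, a part of the radial spokes of the sperm tail, stood at 1.44, 0, 9.06, 57.8 and 64.9 CPM, which is at least 23.3-fold higher in deep SPT-like than in SYCP3-stage cells with 3 counts as the floor. *DNAJC5G*, a testis form of the vesicle protein *DNAJC5*, stood at 2.01, 0, 33.5, 57.2 and 49.3 CPM and so was at least 20.5-fold higher in SPATA16-stage than in SYCP3-stage cells. *DNAJC5* itself went the other way, from 34.2 CPM in deep SPG-like to 10.0 in SPATA16-stage and 11.5 in deep SPT-like cells.

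*DNAJB4*, a cytosolic partner of HSP70, stood at 14.9, 12.1, 30.7, 78.1 and 564 CPM over the 5 stages. *DNAJA4*, another cytosolic partner, stood at 110, 75.2, 26.5, 18.8 and 403 CPM. Within the SPATA16-stage it stood at 1.82 CPM in a cluster of 49 cells and at 44.1 in one of 50 cells. The spermatid marker *ACRV1* stood at 1.82 CPM in the former and 372 in the latter. *DNAJB2*, which also binds ubiquitin, reached 52.3 CPM in pooled deep SPT-like cells from at most 7.86 CPM in the pooled stages before. Split by cluster, it stood at 77.9 and 11.01 CPM in deep SPT-like and at 2.72 and 11.3 in SPATA16-stage cells. Its pooled rise thus rests on the first SPT-like cluster, while the second lay between the SPATA16-stage clusters. Other cytosolic or nuclear J proteins were highest earlier. *DNAJC7*, which hands clients from HSP70 to HSP90, was highest in SYCP3-stage cells at 670 CPM and lowest in deep SPT-like cells at 105 CPM, and *DNAJC13*, which works on endosomes, went from 218 CPM in SYCP3-stage to 25.8 in PIWIL1-stage cells. *DNAJC2*, which sits at the ribosome, was highest in PIWIL1-stage cells at 821 CPM, and *DNAJC21*, which acts in making the large ribosomal subunit, held 755, 864 and 873 CPM in the last 3 stages against 315 and 230 in the first 2. *DNAJC24*, which acts in making the modified histidine diphthamide, was highest in SPATA16-stage cells at 194 CPM.

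J proteins of the ER and of mitochondria were split as well. *DNAJC10*, an ER disulfide reductase, stood at 433, 302, 155, 261 and 735 CPM, and *DNAJC3*, an ER partner of *HSPA5*, at 126, 228, 427, 156 and 10.3 CPM. In deep SPT-like cells the first was therefore at its highest and the second at its lowest. *DNAJB9*, an ER partner that the unfolded protein response induces, was highest in SPATA16-stage cells at 122 CPM, as were *DNAJB12* of the ER membrane at 194 CPM and *DNAJB5* at 55.7 CPM, while *DNAJB14* of the ER membrane was at 48.8 CPM in PIWIL1-stage and had 3 UMIs in deep SPT-like cells. Of the mitochondrial J proteins, *DNAJC28* was highest in SPATA16-stage cells at 428 CPM and *DNAJC15*, which bears on protein import, in deep SPT-like cells at 313 CPM, whereas *DNAJC11*, *DNAJC19* and *DNAJC30* were highest in deep SPG-like cells, at 39.3, 74.4 and 14.6 CPM.

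By the stage of their highest pooled level, the BAG genes fell into 2 groups. *BAG2*, which blocks a ubiquitin ligase that works with HSP70, *BAG3*, which directs clients to autophagy, and *BAG6*, which guards membrane proteins before insertion, were highest in deep SPG-like cells, at 73.5, 75.5 and 599 CPM. *BAG3* stood at 2.40 CPM in SPATA16-stage cells, 31.5-fold below deep SPG-like cells. In the cluster of 82 SPG-like cells with the spermatogonial marker *PIWIL4* at 104 CPM, *BAG2* stood at 115 and *BAG6* at 877 CPM. In the other 65, with *PIWIL4* at 10.9 CPM, they stood at 21.9 and 253 CPM. *BAG6* stood above that last level in both deep SPT-like clusters, at 308 and 284 CPM. *BAG1*, *BAG4* and *BAG5* were highest in deep SPT-like cells. *BAG5* stood at 25.0, 31.6, 14.6, 175 and 679 CPM, *BAG4* stayed between 27.1 and 36.7 CPM before it stood at 334 CPM, and *BAG1* ranged from 72.4 to 266 CPM.

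**Figure D2:**
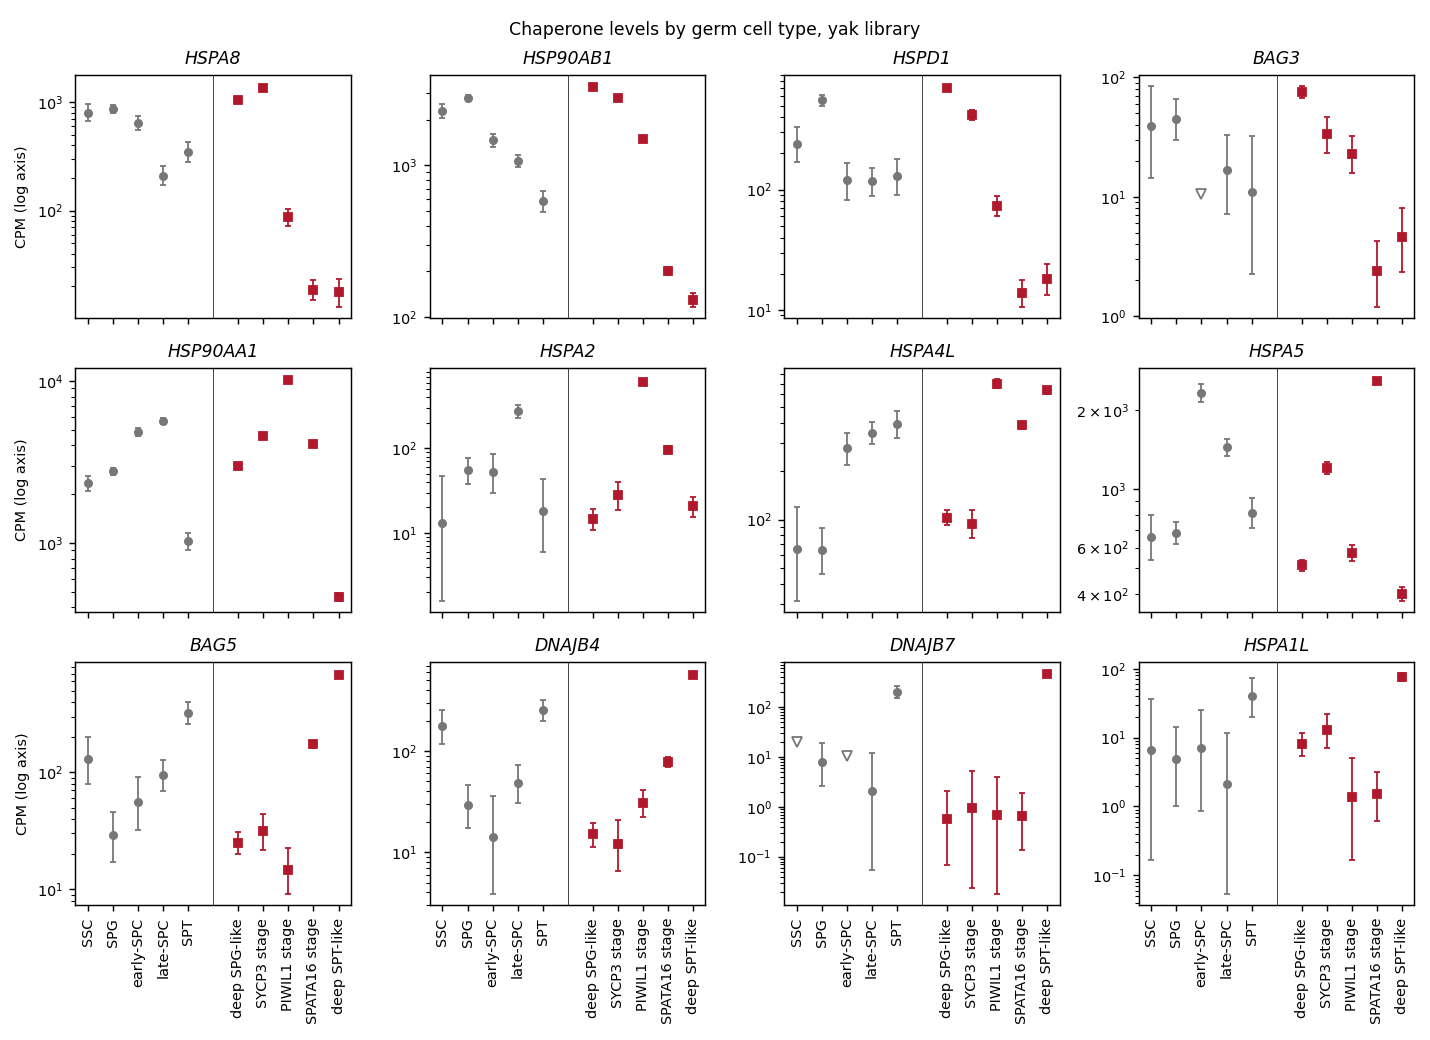
Levels of 12 members in yak germ cells as CPM on log axes, with exact 95% counting intervals. Grey circles are the 5 types of the study's table and red squares the 5 stages of deep cells; an open triangle marks the floor of 3 counts where none was counted. *HSPA8*, *HSP90AB1*, *HSPD1* and *BAG3* are lowest in the last 2 deep stages, and *BAG5*, *DNAJB4*, *DNAJB7* and *HSPA1L* are highest in deep SPT-like cells.

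Counted step by step, the fewest members differed between deep SPG-like and SYCP3-stage cells, which had *DMRT1* at 420 and 414 CPM. Of 44 members compared between SYCP3-stage and deep SPG-like cells, 3 were higher and 4 lower, where 6.63% of all genes compared were higher and 17.3% lower. The higher members were *HSPB11* by a log2 ratio of 2.11, *HSP90B1* by 1.35 and *HSPA5* by 1.24, and the lower ones *CRYAB* at -4.05, *BAG2* at -2.62, *BAG6* at -1.73 and *BAG3* at -1.15. The *CRYAB* value rests on 1 UMI in SYCP3-stage cells, with an interval from -10.38 to -2.55. The 2 deep SPG-like clusters had *CRYAB* at 51.3 and 5.79 CPM, *BAG2* at 115 and 21.9 and *BAG6* at 877 and 253. The first of them was the one with more *PIWIL4*. *BAG6*, at 180 CPM in SYCP3-stage cells, was thus 2-fold lower than in the first cluster only. *BAG2* stood at 17.0 and 8.28 CPM in the 2 SYCP3-stage clusters. In the same order they had *HSPA5* at 440 and 1583, *HSP90B1* at 687 and 1866 and *HSPB11* at 19.9 and 35.9 CPM. The 2 deep SPG-like clusters had *HSPA5* at 571 and 441, *HSP90B1* at 611 and 545 and *HSPB11* at 6.74 and 5.79 CPM. *HSPA5* and *HSP90B1* were thus 2-fold higher in the second SYCP3-stage cluster only. The member median was -0.15 and the median over all genes -0.10.

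Of 43 members compared between PIWIL1-stage and SYCP3-stage cells, 14 were higher and 9 lower, against 27.9% and 28.8% of all genes. Beside *HSPA2* and *DNAJC5G*, the higher members were led by *HSPA4L* at 2.89 (2.60 to 3.21), *DNAJC28* at 2.83, *DNAJC24* at 1.88, and *DNAJC21* and *DNAJB12* at 1.71. Beside *HSPA8*, the lower members were led by *DNAJC13* at -3.03 and *HSPD1* at -2.49 (-2.83 to -2.20), followed by *DNAJC11*, *DNAJC7*, *DNAJA4*, *HSPA5*, *HSPH1* and *BAG5*. *HSPA5* stood at 440 and 1583 CPM in the SYCP3-stage clusters and at 666 and 530 in the PIWIL1-stage clusters. The member median was 0.65 where that of all genes was -0.07.

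Of 43 members compared between SPATA16-stage and PIWIL1-stage cells, 9 were higher and 11 lower, against 22.6% and 22.5% of all genes. *BAG5* at 3.49 (2.95 to 4.28), *DNAJB13* at 2.55 and *HSPA5* at 2.17 (2.07 to 2.28) led the higher ones. *HSP90AB1* at -2.89 (-3.01 to -2.78), *BAG3* at -2.82, *HSPA2* at -2.66, *HSPD1* at -2.33 and *HSPA8* at -2.16 led the lower ones. *HSP90AA1* was lower as well, at -1.30, and the medians were -0.21 for members and -0.04 for all genes.

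Of 47 members compared between deep SPT-like and SPATA16-stage cells, 11 were higher and 15 lower, against 27.3% and 36.0% of all genes. The higher members included *DNAJB7* at 8.12, whose plain ratio of 1199 against 3 UMIs had an interval from 7.90 to 11.73, as well as *HSPA1L* at 4.93, *DNAJA4* at 4.35, *BAG4* at 3.58, *DNAJB4* at 2.84, *DNAJB2* at 2.59 and *BAG5* at 1.95. The lower ones included *DNAJC3* at -3.79, *HSP90AA1* at -3.13 (-3.22 to -3.05), *HSP90B1* at -3.02, *HSPA5* at -2.69 and *HSPA2* at -2.17. The medians were -0.37 for members and -0.43 for all genes. With the SPC stages taken as 1 class, 19 of 51 members were higher and 16 lower in deep SPC-like than deep SPG-like cells (26.5% and 35.2% of all genes). Between deep SPT-like and deep SPC-like cells, 9 of 49 members were higher and 19 lower (22.8% and 43.8% of all genes).

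Summed by list, heat-inducible chaperones (10 of 16 listed genes matched the table) stood at 8627, 9439, 11923, 4499 and 1235 CPM over the 5 stages. *HSP90AA1* and *HSP90AB1* made up most of that sum in the first 4 stages, and *DNAJB4*, at 564 CPM, was its largest item in deep SPT-like cells. The 7 matched members known from the testis, *HSPA2*, *HSPA1L*, *HSPA4L*, *DNAJB7*, *DNAJB13*, *DNAJC5G* and *BAG5*, stood at 154, 167, 1376, 773 and 1982 CPM. Chaperones of the ER stood at 1686, 3264, 2836, 4626 and 1451 CPM. The immediate early genes, which respond to handling of tissue, stood at 1104, 473, 694, 433 and 507 CPM, lowest in SPATA16-stage cells. Their part in the result was not tested.

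Genes of the folding pathway outside the set were counted in the same way. Of all genes, 6.63% were higher and 17.3% lower in SYCP3-stage than in deep SPG-like cells. These shares were 27.9% and 28.8% in PIWIL1-stage against SYCP3-stage cells, and 27.3% and 36.0% in deep SPT-like against SPATA16-stage cells. Of 9 ER lectins and disulfide isomerases, 5 were at least 2-fold higher in SYCP3-stage than in deep SPG-like cells and 0 lower, with *CALR* at 1.57 and *CANX* at 1.28. In PIWIL1-stage cells the testis forms *CALR3* and *CLGN* were higher by 4.64 and 4.57, and 4 of 9 were lower, led by *PDIA4* at -4.60 and *CANX* at -2.75. *PDILT*, the testis disulfide isomerase, was higher by 4.32 in SPATA16-stage and again by 3.92 in deep SPT-like cells, where 6 of 8 genes of the list were lower. Of 12 subunits of the CCT chaperonin and prefoldin, which fold actin and tubulin, 7 were higher and 1 lower in PIWIL1-stage than in SYCP3-stage cells, led by the testis subunit *CCT6B* at 3.18, and 7 of 13 were lower in deep SPT-like than in SPATA16-stage cells.

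Among the cochaperones of HSP90 and HSP70, 1 of 18 was higher and 3 lower in PIWIL1-stage than SYCP3-stage cells (27.9% and 28.8% of all genes). In deep SPT-like against SPATA16-stage cells 3 of 18 were higher and 10 lower (27.3% and 36.0% of all genes). *SGTA* stood there at 2.03 and *HYOU1*, the HSP110 of the ER, at -3.17. The heat shock factors, which drive chaperone transcription, did not share a course. *HSF5* was higher by 2.79 in PIWIL1-stage cells and lower by -1.11 and -2.26 in the following 2 steps, whereas *HSF2* was lower by -1.55 and -2.51 and then higher by 3.32 in deep SPT-like cells. *HSF1* did not reach 2-fold in these 4 steps. Of 7 genes of the unfolded protein response, 3 were higher and 0 lower in SYCP3-stage than in deep SPG-like cells (6.63% and 17.3% of all genes). The higher ones were *SDF2L1* at 2.19, *MANF* at 2.13 and *CRELD2* at 1.75. In the last step 9 were counted, with 2 higher, *EDEM1* at 3.76 and *HERPUD1* at 3.20, and 5 lower (27.3% and 36.0% of all genes).

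The shallower cells of the study's table were compared in the same way. Between late-SPC and SPT together and SPG, 18 of 44 members were higher and 7 lower, against 29.9% and 24.2% of all genes, with medians of 0.48 and -0.05. The lower ones were *BAG2* at -2.98, *HSPD1* at -2.18, *DNAJC13* at -2.11, *HSPH1* at -1.77, *HSPA8* at -1.73, *HSP90AB1* at -1.65 and *BAG3* at -1.56. The higher ones included *DNAJB7* at 3.06, *DNAJC28* at 2.95, *DNAJC27* at 2.68, *BAG5* at 2.57, *HSPA4L* at 2.46 and *HSPA2* at 1.72, while *DNAJC5G* and *DNAJB13* had 36 and 25 UMIs in late-SPC and SPT against 1 each in SPG.

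Between neighbouring types of the table, 14 of 35 members were higher and 8 lower in early-SPC than in SPG (26.9% and 32.5% of all genes), led by *HSPB11* at 4.70 (3.32 to 7.29), *DNAJC18* at 3.49 and *HSP90B1* at 2.77, and at the other end by *BAG2* at -2.92 (-6.19 to -1.13) and *DNAJC21* at -2.75. In late-SPC against early-SPC, 9 of 37 were higher and 10 lower (39.0% and 29.2% of all genes), with *DNAJC21* at 4.44 and *HSPA2* at 2.37, and with *DNAJC13* and *DNAJC5* at -3.01. In SPT against late-SPC, 8 of 37 were higher and 10 lower (20.2% and 28.8% of all genes), with *DNAJB7* at 6.04 (4.05 to 11.92), *DNAJA4* at 2.88 and *DNAJB4* at 2.37, and with *HSPA2* at -3.84 and *HSP90AA1* at -2.46. *BAG3* had 0 counts in the 72 early-SPC. *DNAJC21* and *HSPB11* therefore had their sharpest steps on either side of early-SPC, the type with the fewest cells.

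In SSC against SPG, 0 of the 19 members compared were higher and 4 lower, against 6.10% and 21.0% of all genes. These 4 were *HSPA4* at -1.22, *HSPD1* at -1.20, *DNAJC10* at -1.10 and *DNAJC7* at -1.05. The summed markers of endothelial cells stood at 2384 CPM in SSC, 559 in SPG and 4063 in endothelial-like (EC-like) cells, and immediate early genes at 16730, 6178 and 14070 CPM. Levels of the endothelial member *HSPA12B* were 84.9, 16.2 and 122 CPM in SSC, SPG and EC-like cells, those of *BAG5* 131, 29.1 and 91.1 CPM, and those of *DNAJB4* 176, 29.1 and 117 CPM. The part of endothelial RNA in these SSC levels was not tested.

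Deep germ cells against the table's germ cells gave 4 of 50 members higher and 2 lower, where 16.2% and 8.55% of all genes were, and 2 higher and 2 lower with mitochondrial genes and genes over 2% of UMIs left out of the total. *DNAJB7* at 1.41, *DNAJB13* at 1.20, *DNAJB12* at 1.16 and *DNAJC21* at 1.14 were higher, and *CRYAB* at -1.65 and *DNAJB14* at -1.44 lower. Within single types the distance could be larger. *HSPA8* stood at 350 CPM in the table's SPT and 17.6 CPM in deep SPT-like cells, and immediate early genes at 4075 and 507 CPM, lymphocyte markers at 1134 and 198 CPM and markers of muscle cells at 2706 and 287 CPM in the same 2 groups. *CRYAB* stood at 53.3 CPM in the table's SPG and 31.0 in deep SPG-like cells, with muscle cell markers at 4714 and 644 CPM. The part of RNA from other cells in these differences was not tested. The broad type with the highest level (SSC or SPG, SPC, SPT) was the same in the table's cells and the deep cells for 38 of the 52 members. The share over all genes is not given here, so this count is not read as a trait of the members.

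Against 8080 yak cells in named somatic classes, the table's germ cells had 20 of 47 members higher and 4 lower, where 27.8% and 19.0% of all genes were. The member median was 0.77 and that of all genes 0.19. *HSPA4L* stood at 221 CPM in germ and 5.57 CPM in somatic cells, a log2 ratio of 5.08 (5.04 to 5.59). *DNAJC28* at 3.06, *HSPB11* at 2.78, *DNAJA4* at 2.60, *DNAJC15* at 2.43, and *DNAJA3* and *DNAJC2* at 2.37 followed. The 4 lower members were *HSPA6* at -2.23 (-6.06 to -1.14), *HSPA12A* at -1.75 (-5.52 to -0.59), *HSPA12B* at -1.46 and *HSPB6* at -1.15.

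In yak somatic cells fewer members set the classes apart. Over 361 pairs of a member and a class, each class against the other named classes, 4.99% were higher and 16.1% lower, where the shares over all genes were 7.66% and 21.7%. Among members with enough counts, *CRYAB* had the highest ratio of a class to the others. It stood at 369 CPM in muscle-like (MC-like) cells, 36.3 in EC-like, 34.0 in pericyte-like, 12.8 in B cell-like, 9.75 in stromal-like, 7.76 in lymphatic EC-like, 7.59 in macrophage-like and 7.32 in T/NK-like cells, a log2 ratio of 4.23 for MC-like cells. It stood higher still, at 743 CPM, in 32 Sertoli-like (SC-like) cells, and at 258 CPM in an unnamed cluster of 69 cells led by *WFDC2*. Ratios between somatic classes were taken from 50 cells up, a limit not set for the deep stages. In MC-like cells the 5 cells with most held 5.11% of the *CRYAB* UMIs, against 47.5% of 40 UMIs in SC-like cells.

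Muscle and stromal classes shared further members. *HSPB6*, a small heat shock protein of smooth muscle, stood at 116 CPM in stromal-like and 97.7 in MC-like cells, log2 ratios of 1.91 and 1.52, and at 154 CPM in a cluster of 422 cells with *CYP11A1*. *HSPA2*, outside its meiotic stages, stood at 136 CPM in stromal-like and 125 in pericyte-like cells, log2 ratios of 1.55 and 1.18. *HSPA12A* was at 33.3 CPM in pericyte-like and 18.2 in stromal-like cells.

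EC-like cells had *HSPA12B* at 122 CPM, a log2 ratio of 2.93, with *BAG5* at 1.76, *HSPB8* at 1.21 and *DNAJB4* at 1.16 also higher. Lymphatic EC-like cells had *HSPA12B* at 59.7 CPM and no member 2-fold higher. Immune classes had others. Macrophage-like cells had *HSPH1* at 439 CPM, a log2 ratio of 2.13, and *HSPA6*, a strictly stress-induced HSP70, at 176 CPM against at most 6.95 CPM in the other 7 named classes, though the number of counts was too low for its comparison. Of its 139 UMIs there, 38.1% came from 5 of 214 cells. Within the T/NK-like class, a cluster of 218 cells had *HSPA6* at 45.5 CPM (26.9 to 71.9) from 18 UMIs. B cell-like cells had the ER members *HSP90B1* at 2006 CPM, *DNAJC3* at 545 CPM and *HSPA13* at 59.6 CPM, log2 ratios of 1.93, 1.76 and 1.36.

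**Figure D3:**
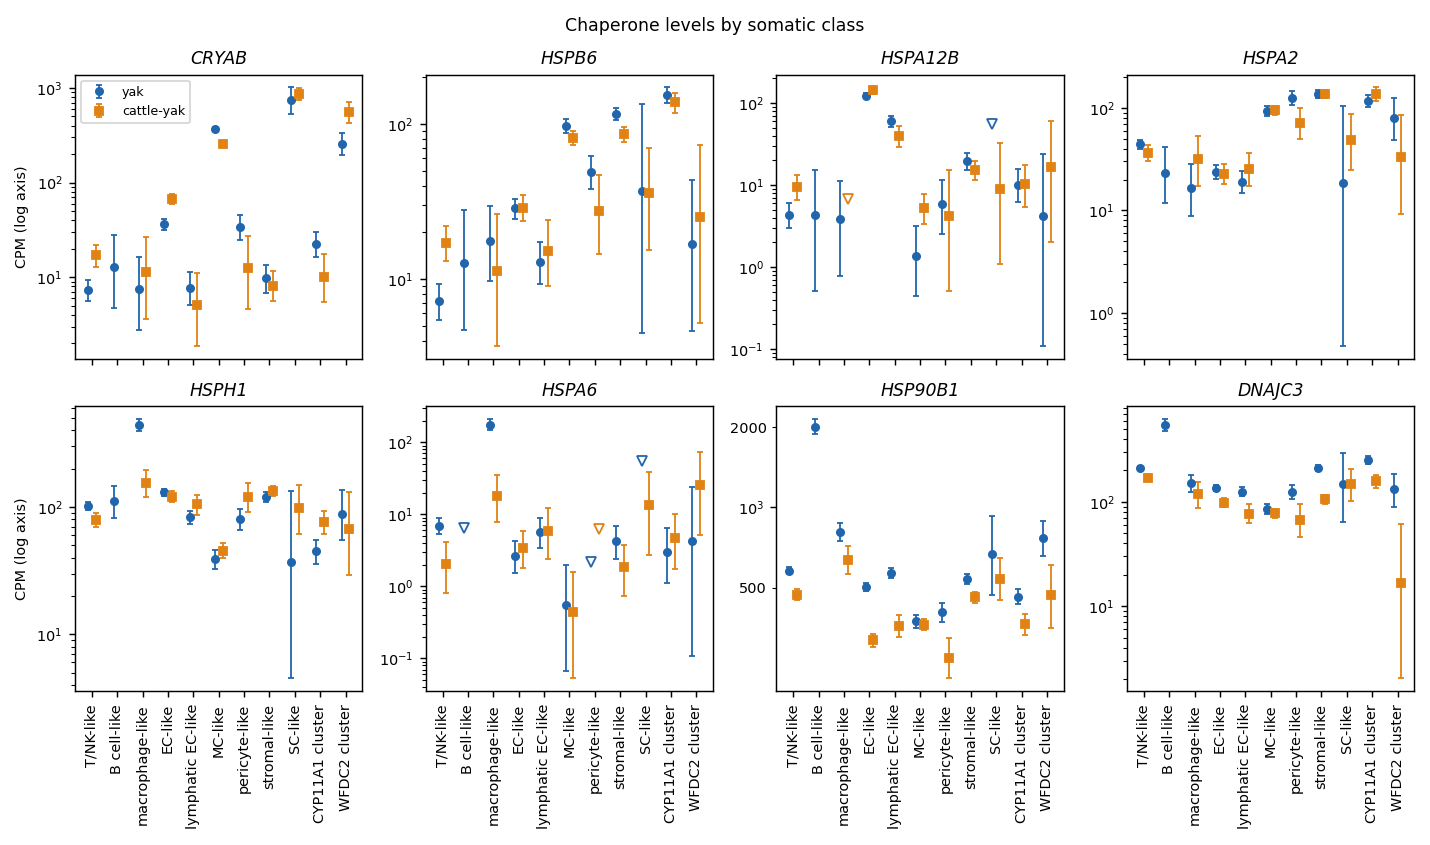
Levels of 8 members in somatic classes and in 2 unnamed clusters as CPM on log axes, with exact 95% counting intervals, for the yak (blue circles) and cattle-yak library (orange squares); open triangles mark the floor of 3 counts where none was counted. *CRYAB* is highest in SC-like, MC-like and *WFDC2* cells of both libraries, *HSPA12B* in EC-like cells, and *HSPA6* and *HSPH1* in yak macrophage-like cells.

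Between the libraries, which compares 1 animal with 1 animal, fewer pairs were apart than between classes. Over 322 pairs of a member and a class in 8 classes, 6 were higher and 26 lower in the cattle-yak (1.86% and 8.07%), where 3.40% and 7.80% of all genes were, and the split was 8 and 20 with mitochondrial genes and genes over 2% of UMIs left out of the total. Mitochondrial genes took 22.2% of all UMIs in the cattle-yak and 13.1% in the yak library, and leaving them out moved the median over all genes by 0.10 to 0.31 in these classes. Macrophage-like cells held 7 of the lower pairs, among 28 members compared there (25%), where 7.84% of all genes were lower. There *HSPA6* stood at 18.1 CPM from 8 UMIs against 176 CPM in the yak, *HSPH1* at 154 against 439 CPM, and *DNAJC7* at 58.7 against 140 CPM, while *DNAJB6* was higher at 42.9 against 11.4 CPM.

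In stromal-like cells *DNAJB4* stood at 14.8 CPM in the cattle-yak and 58.8 in the yak, and the heat-inducible list at 2335 and 4011 CPM. Immediate early genes stood at 5399 and 13406 CPM in the same cells, with 17 of 19 at least 2-fold lower in the cattle-yak against 12.1% of all genes there, and their part in the result was not tested. In lymphatic EC-like cells *HSPB8* stood at 5.91 against 30.1 CPM and *DNAJC21* at 16.1 against 59.4 CPM. The heat-inducible sum differed by log2 ratios from -0.78 in stromal-like to 0.09 in pericyte-like cells, with a median of -0.15 over 8 classes. In EC-like cells it stood at 6127 and 6073 CPM. *CRYAB* stood at 862 CPM in SC-like, 553 in *WFDC2* and 255 in MC-like cells of the cattle-yak, so the last 2 had the other order than in the yak. The 5 cells with most held 80.3% of its 66 UMIs in the 30 *WFDC2* cells, 44.6% in SC-like and 3.85% in MC-like cells.

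Cattle-yak germ cells reached the PIWIL1-stage and no SPATA16-stage or SPT-like cluster was found. The deep cells were 81 SPG-like, 42 SYCP3-stage and 10 PIWIL1-stage cells, and a further cluster of 87 deep cells stayed unnamed. *DNAJB7* had 0 UMIs in all 8930 cattle-yak cells, below 0.0685 CPM with 3 counts as the floor, against 1507 UMIs in the yak library. *DNAJB13* had 7 UMIs and *DNAJC5G* 14, against 539 and 532 in the yak. The spermatid genes *HMGB4* and *TNP1* also had 0 UMIs in the cattle-yak library.

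Cells with the same stage name were then set side by side. In deep SPG-like cells 0 of 46 members were higher and 6 lower in the cattle-yak, against 2.71% and 12.0% of all genes, and the split was 1 and 4 with mitochondrial genes and genes over 2% of UMIs left out. The 6 were *CRYAB* at -1.87, *DNAJC5* at -1.45, *DNAJB4* at -1.25, *HSPA1L* at -1.23, *BAG5* at -1.06 and *DNAJC27* at -1.02, and the medians were -0.25 for members and -0.25 for all genes. *PIWIL4* stood at 104 and 10.9 CPM in the 2 yak SPG-like clusters and at 17.4 and 10.7 in those of the cattle-yak. *CRYAB* stood at 51.3 and 5.79 against 6.83 and 9.52 CPM, and *HSPA1L* at 11.4 and 3.86 against 3.73 and 1.19. *DNAJC5*, *DNAJB4*, *BAG5* and *DNAJC27* were lower in both cattle-yak clusters than in either yak cluster. For each of them the counting intervals of the nearest clusters of the libraries overlapped. *BAG5* stood at 16.6 and 35.4 against 14.3 and 5.95 CPM, and *DNAJC27* at 9.33 and 27.7 against 8.07 and 8.33. The part of this mixture was not tested. In SYCP3-stage cells 2 of 43 were higher, *DNAJC24* at 1.41 and *DNAJC30* at 1.26, and 1 lower, *DNAJC3* at -1.09, against 4.59% and 6.57% of all genes, and the split was 3 and 0 under that other total. Immediate early genes stood at 1531 CPM in the cattle-yak and 473 in the yak there.

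The opposite steps of *HSPA8* and *HSPA2* were present in the cattle-yak too. *HSPA2* stood at 20.8, 27.1 and 449 CPM (370 to 540) in its SPG-like, SYCP3-stage and PIWIL1-stage cells, and *HSPA4L* at 65.3, 68.4 and 536 CPM. *HSPA8* stood at 1059, 1277 and 334 CPM (266 to 413), so that in the 10 PIWIL1-stage cells it was higher than in the yak by a log2 ratio of 1.94 (1.53 to 2.36). It was the 1 higher of 31 members compared there, and *DNAJC27* at -1.18 and *DNAJC28* at -1.06 were the 2 lower, against 3.31% and 11.4% of all genes. *HSP90AA1* stood at 2223, 4776 and 9201 CPM and *HSPD1* at 774, 583 and 119 CPM. *PIWIL1* itself stood at 651 CPM in these 10 cells and at 1151 in the yak, and the part of this difference in the others was not tested. The yak stage pooled clusters of 17 and 16 cells, with *SPATA16* at 222 and 917 CPM, against 330 in the cattle-yak. In these 2 yak clusters *HSPA8* stood at 229 and 20.4 CPM, *DNAJC27* at 79.2 and 83.7 and *DNAJC28* at 55.0 and 254. *DNAJC28*, at 91.3 CPM in the cattle-yak, was thus lower than in the second only, and *DNAJC27*, at 35.7, lower than in both.

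Among cells within the depth limits, 112 cattle-yak and 210 yak cells were SPC-like. *HSPA2* stood at 42.0 CPM in the former and 148 in the latter, a log2 ratio of -1.79 (-2.48 to -1.21), *HSPA4L* at 106 and 290 CPM and *DNAJC28* at 23.5 and 83.4 CPM. *PIWIL1* stood at 31.9 and 213 CPM and *SYCP3* at 554 and 824 CPM in the same cells. Stage mixture and library cannot be told apart in this class, and with deep cells matched by stage *HSPA2* differed by 0.48, -0.04 and -0.46 and *HSPA4L* by -0.65, -0.45 and -0.39 in SPG-like, SYCP3-stage and PIWIL1-stage cells.

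**Figure D4:**
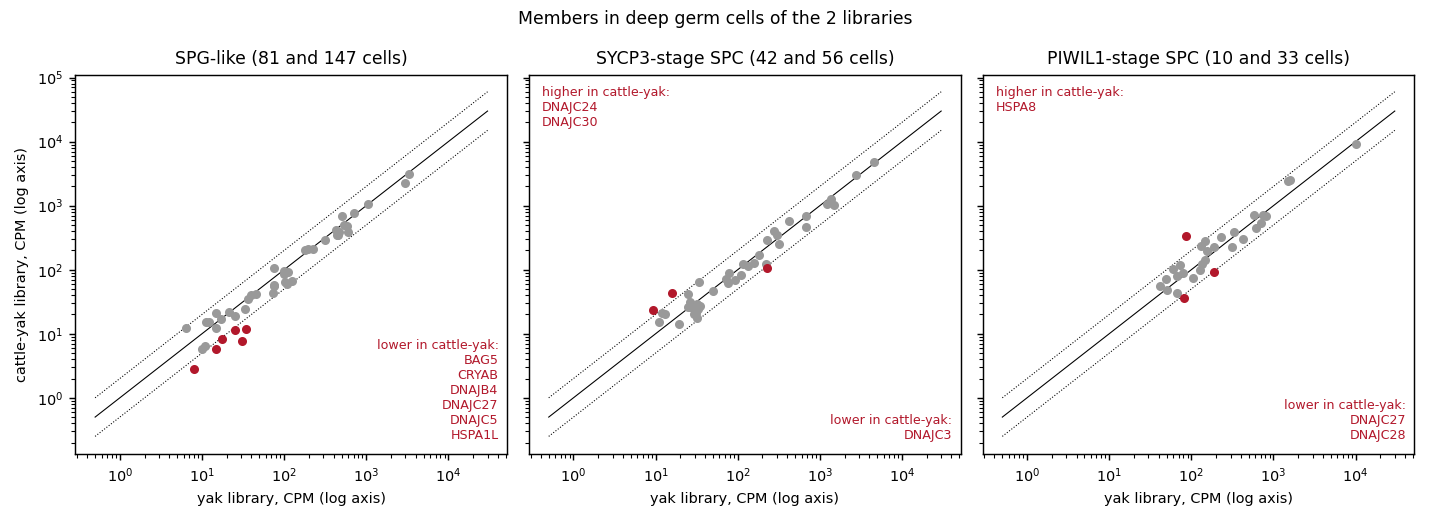
Members with enough counts in deep germ cells, cattle-yak CPM against yak CPM on log axes, in SPG-like, SYCP3-stage and PIWIL1-stage cells. Each point is a member, the solid line marks equal levels and the dotted lines a 2-fold difference. Red points lie beyond 2-fold and are named: the 6 in SPG-like cells are all lower in the cattle-yak, and in PIWIL1-stage cells *HSPA8* lies above the lines and *DNAJC27* and *DNAJC28* below.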

How the data were processed

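For each library the authors deposited UMI counts for each gene in each barcode, whole numbers without normalization, for 26961 genes of the yak annotation, of which 15722 carry a symbol. The file headers name Cell Ranger 5.0.0 and the labels 2.1.1. The members and lists were chosen with earlier results of these data known. Cells were kept within 2 SD of the mean of UMIs and genes and under 30% mitochondrial UMIs (10324 yak, 7092 cattle-yak cells). A total of 24 barcodes occurred in both libraries, which were kept apart. All 1127 barcodes of the study's germ cell table were found. Kept and deep cells were clustered apart with scanpy 1.11.5 (Leiden resolution 1, 30 components, 15 neighbours, 2000 variable genes, seed 0, igraph 0.11.9) without the members, the pathway lists and mitochondrial genes. A cluster was named by at least 3 listed markers that reached a log2 ratio of 1 and a UMI in 10% of its cells. Scrublet called 0 yak cells and did not work there, and 251 cattle-yak cells, and none was removed.

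Counts were summed per group and given as CPM. Levels had exact Poisson and ratios exact conditional binomial intervals (scipy 1.17.1). The comparison was tested on simulated data. Named are the up to 8 members with the largest and smallest log2 ratios per comparison, a fixed set headed by *CRYAB*, *HSPA2*, *HSPA8* and the HSP90 genes, any member with its level in each type, and up to 3 genes at either end of each pathway list. Reads that match several near-identical members could be lost in the authors' counting, and this was not examined. No genome of the build or sequence table was used here, so no sequences or positions are given. Alternatives were other CPM totals, equal weight per cell, a mitochondrial limit of 20%, a pseudocount of 0.1 CPM, 30 or no expected counts, thinning to 1000 UMIs, removal of the top 10% of cells by Scrublet score, Leiden resolution 2 and 50 components. The comparisons of deep classes and stages were added after the data were seen.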

Additional observations from a re-analysis of the deposited data

Results flagged for a closer look

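For 2 members the cattle-yak library lay at least 2-fold above the yak library in one class and at least 2-fold below it in another. *BAG4* had a log2 ratio of -1.11 in macrophage-like cells, from 6 UMIs in the cattle-yak and 24 in the yak, and of 1.17 in SPC-like cells within the depth limits, from 24 and 22 UMIs. *CRYAB* had a log2 ratio of 1.12 in T/NK-like cells and of -1.36 in pericyte-like cells, the latter from 6 and 47 UMIs. Neither difference between classes was tested, since each library is 1 sample. Of the 59 *CRYAB* UMIs in cattle-yak T/NK-like cells, 34 came from a cluster of 125 dividing cells, at 51.3 CPM. Without such clusters, an alternative chosen after the data were seen, *CRYAB* stood at 8.95 CPM (5.79 to 13.2) in the cattle-yak and 6.48 CPM (4.80 to 8.57) in the yak.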

How the results depend on the processing

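No paired analysis was possible because each library is 1 sample. The settings of 30 or no expected counts leave each ratio as it was, and a pseudocount of 0.1 CPM cannot turn its direction. These settings could therefore not fail on direction, and ratios no longer compared under a setting were not counted. Of 3025 recomputed member ratios beyond 2-fold, 3022 kept their direction and 2890 stayed beyond 2-fold. The exceptions in direction were *DNAJB4* and *BAG3* in B cell-like cells, from -1.76 to 0.13 and from -1.82 to 0.24 with equal weight per cell, and *HSPA12B* between libraries in MC-like cells, from 1.40 to -0.92 at Leiden resolution 2. Of 306 recomputed counts and sums, 241 stayed within 1.5 times (or within the counting interval). The others follow, as members higher or lower. With mitochondrial genes and genes over 2% of UMIs left out of the total, deep against table germ cells had 2 higher, the library comparison of deep SPG-like cells had 1 higher and of SYCP3-stage cells 0 lower, and the heat-inducible median moved from -0.15 to 0.0030. With equal weight per cell, lower members numbered 2 in germ against somatic cells, 1 in SSC against SPG, 1 in deep against table cells and 0 in SYCP3-stage cells between libraries, and 5 were higher in SYCP3-stage than SPG-like cells. At a mitochondrial limit of 20%, libraries differed by 2 higher and 17 lower pairs over 7 classes, 2 lower in SPG-like, 1 higher and 0 lower in SYCP3-stage cells, and the heat-inducible median was -0.098. With 30 expected counts, 2 were lower in germ against somatic cells, 6 higher in early-SPC against SPG, 5 higher and 3 lower in late-SPC against early-SPC, 4 higher in SPT against late-SPC, 1 lower in deep against table cells, 0 higher in SYCP3-stage cells between libraries, and 2 and 10 library pairs. With no filter, 22 were lower in early-SPC against SPG, 24 higher in late-SPC against early-SPC, 19 lower in SPT against late-SPC, 5 higher and 12 lower in SSC against SPG, 7 lower in deep against table cells, 6 and 10 in SYCP3-stage against SPG-like cells, 10 and 4 in SYCP3-stage cells between libraries, and 13 and 53 library pairs. Thinned to 1000 UMIs, which leaves fewer counts and members to compare, 1 was lower in germ against somatic cells, 4 higher and 3 lower in early-SPC against SPG, 1 and 3 in late-SPC against early-SPC, 6 lower in SPT against late-SPC, 2 in SSC against SPG and 1 in deep against table cells. Deep SPC-like against SPG-like cells then had 9 and 6, SPT-like against SPC-like 3 and 8, and the 4 stage steps 1 lower, 3 and 3, 2 and 3, and 5 and 8. Between libraries thinning left 0 lower in SPG-like and 0 higher in SYCP3-stage cells, 1 and 14 pairs, and 30 lower somatic pairs. Without the top 10% of cells by Scrublet score, 1 was higher in SPG-like, 1 higher and 4 lower in SYCP3-stage cells, and 3 pairs higher. Leiden resolution 2 left 2 pairs higher. The causes were not tested. Leaving out a library leaves no comparison, and the stages were not clustered again. SPT of the table had a median of 906 UMIs per cell, and only 19 members had enough counts in SSC against SPG.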
